A study of Mus musculus with 6 samples.

Results

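The S100 family was followed on 6 Affymetrix mouse expression arrays through 8 genes, S100b, S100a1, S100a4, S100a6, S100a10, S100a11, S100a13 and S100a16. Every probe set that the platform annotation gives exactly 1 of these symbols was taken, which left 12 of 45037 probe sets and 7 of the 8 genes. The only probe set that names S100a11 carries 3 symbols, so S100a11 was not analysed here. S100a10 was read by 3 probe sets, S100b, S100a1 and S100a16 by 2 each, and S100a4, S100a6 and S100a13 by 1 each. Probe sets of 1 gene read transcripts of the same gene and are not separate evidence.

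The 3 reactive arrays carried RNA of green fluorescent cells from TgN(hGFAP-EGFP) GFEA mice, whose reporter is under the control of a human GFAP promoter. The cells were sorted 5 days after stab injury of the grey matter of the somatosensory cortex, with wounds of 0.7 mm depth and 1 to 1.2 mm length. The 3 non-reactive arrays carried such cells from the same region of uninjured Tg(Aldh1l1-eGFP)OFC789Gsat mice. All mice were FVB/N, 2 to 3 months old and of undetermined sex, and each array held cells pooled from about 15 animals. The wound and the reporter line change together, so their parts in any difference cannot be told apart. The arrays correlated at 0.901 to 0.921 within the reactive and 0.95 to 0.963 within the non-reactive group. Between the groups the range was 0.889 to 0.930, so some reactive arrays were as close to non-reactive arrays as to each other. Reactive replicate 3 stood apart in its sums of endothelial, fibroblast and neuronal markers, given with the marker lists. The members' differences are therefore also given without it.

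S100 proteins are small calcium sensors that carry a pair of EF-hand loops, mostly form dimers, and have no enzymatic activity of their own. On binding calcium most of them expose a surface that grips target proteins of the cytoskeleton, the membrane or signalling pathways, and some are also released and act on receptors such as RAGE, the product of Ager. S100b is in wide use as a marker of astrocytes and is also found in oligodendrocytes. S100a10 is the exception that does not bind calcium and instead holds annexin A2. S100a4, S100a6, S100a10 and S100a11 are widely expressed in fibroblasts, vessels and leukocytes.

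Most S100a genes lie side by side on mouse chromosome 3, while S100b lies on chromosome 10. In the RefSeq gene table of GRCm38.p6 the order on chromosome 3 was S100a1, S100a13, S100a14, S100a16, S100a3, S100a2, S100a4, S100a5, S100a6, S100a7a, S100a8 and S100a9, with 0 other protein-coding genes between them. S100a7l2 came next, with 1 other protein-coding gene before it, and S100a11 and S100a10 followed farther along, next to each other. The promoter table of the same build held 7 of the 8 genes, and S100a10 was the one without an entry. The 250 bases before the start site are shown for S100a6 and S100a4, members of this cluster with the most similar array profiles. Those of S100b are also shown, as its probe set means differed in the opposite direction. All are written from 5′ to 3′ on the gene's strand, and capitals mark matches to the motifs searched.
S100a6, chr3:90612644-90612893, plus strand: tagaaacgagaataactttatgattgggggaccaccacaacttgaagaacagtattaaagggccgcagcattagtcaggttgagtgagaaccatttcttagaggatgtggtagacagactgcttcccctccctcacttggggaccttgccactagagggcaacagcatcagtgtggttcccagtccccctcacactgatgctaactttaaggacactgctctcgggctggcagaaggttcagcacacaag
S100a4, chr3:90603520-90603769, plus strand: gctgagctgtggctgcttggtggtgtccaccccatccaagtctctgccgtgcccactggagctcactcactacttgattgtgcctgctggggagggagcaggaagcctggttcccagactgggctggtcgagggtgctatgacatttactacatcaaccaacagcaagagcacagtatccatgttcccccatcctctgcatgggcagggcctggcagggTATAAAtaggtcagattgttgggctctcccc
S100b, chr10:76253586-76253835, plus strand: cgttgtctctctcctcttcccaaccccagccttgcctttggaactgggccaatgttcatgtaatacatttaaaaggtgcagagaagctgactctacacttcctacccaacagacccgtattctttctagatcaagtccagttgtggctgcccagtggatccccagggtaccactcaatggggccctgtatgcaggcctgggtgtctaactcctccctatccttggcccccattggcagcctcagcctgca

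S100a1 and S100a13 are divergent neighbours whose windows overlap. The 104 bases between their start sites belong to the promoters of both and are shown on the plus strand, which is the strand of S100a13.
Shared by S100a1 and S100a13, chr3:90514331-90514434: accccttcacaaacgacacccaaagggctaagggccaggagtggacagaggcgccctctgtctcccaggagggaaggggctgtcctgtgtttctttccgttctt

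The motifs searched on both strands were AP-1 (TGANTCA), STAT (TTCNNNGAA), the TATA box (TATAAA), the E-box (CACGTG) and the GC box (GGGCGG). No motif searched contains another. In the sequences shown, the only match was a TATA box that began 31 bases before the start site of S100a4. Over all 32851 promoter windows of 250 bases, 12.4% held that motif, 6.75% the AP-1 motif, 7.02% the STAT motif, 6.02% the E-box and 32.7% the GC box. A missing match says only that these letters are not in the window.

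S100a6, S100a4 and S100a10 measured higher on all 3 reactive arrays than on any non-reactive array, at about 2.9-fold to 3.3-fold in the means of the probe sets above background. S100b measured lower in the means of its probe sets, but on the brighter one, 1434342_at, the groups overlapped. S100a1, S100a13 and S100a16 differed by less than 1.5-fold. None of these differences passed the threshold, an adjusted p of 0.05 over all probe sets. Of the 12 member probe sets 0 passed in limma, where 0.85% of all probe sets passed. At an unadjusted p under 0.05 there were 5 of the 12, against 13.2% of all probe sets. The groups did not overlap in 6 of the 12, 5 of them higher and 1 lower in the reactive arrays, against 12.8% higher and 8.08% lower over all probe sets. The median log2 difference was 0.22 over the 12 and 0.10 over all probe sets. On the same reactive arrays the summed level of microglia and macrophage markers was 25996 to 41196, against 10300 to 10715 on the non-reactive arrays. In RNA of pooled sorted cells, fewer cells of a type and less RNA per cell cannot be told apart.

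**Figure D1:**
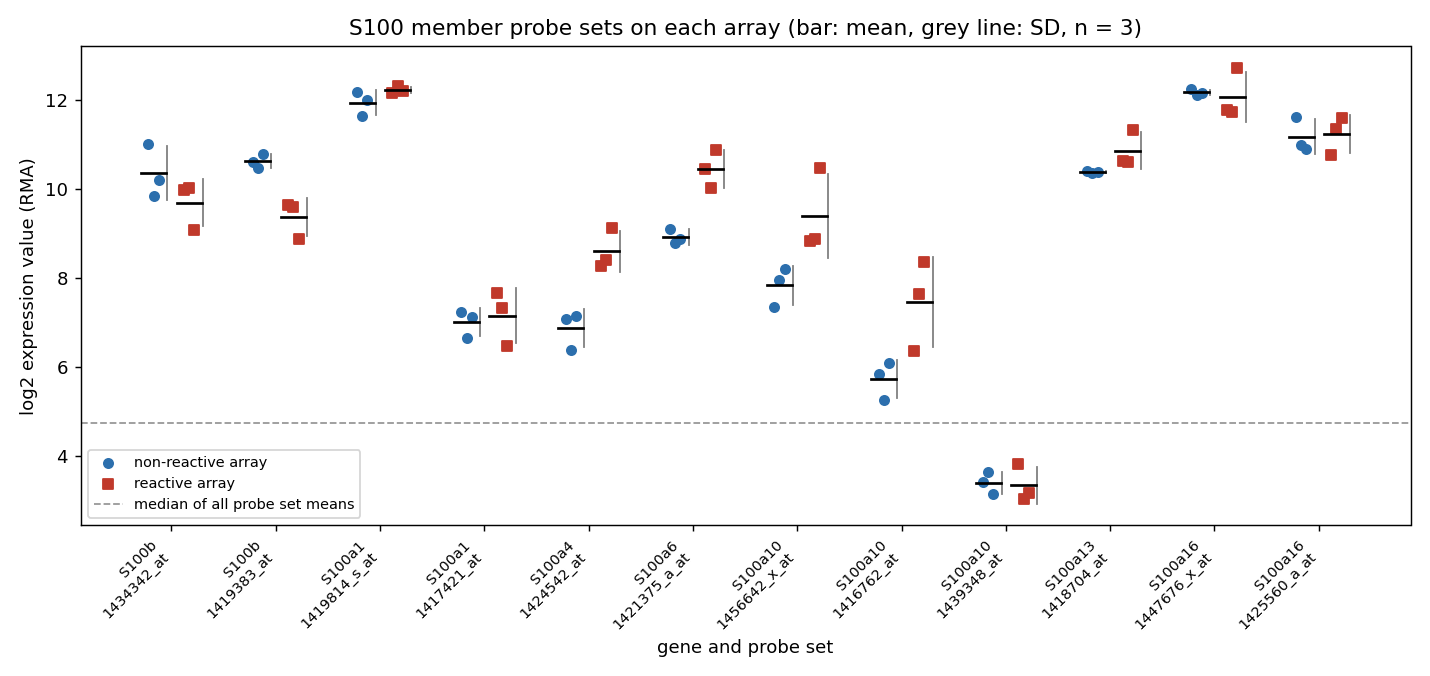
Log2 expression value of each of the 12 S100 member probe sets on each array, with non-reactive arrays as circles, reactive arrays as squares, group means as black bars and SD as grey lines (n = 3). The squares lie above the circles for S100a4, S100a6, S100a13 and both S100a10 probe sets above background, and below them for 1 S100b probe set.

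S100b, the glial member that also acts outside the cell, was read by 2 probe sets. On 1419383_at the log2 expression values were 9.63, 9.60 and 8.86 in reactive replicates 1, 2 and 3 and 10.61, 10.46 and 10.79 in the non-reactive ones. All 3 reactive arrays lay below all non-reactive arrays. The means were 9.36 ± 0.44 and 10.62 ± 0.16 (log2, SD, n = 3), a log2 difference of -1.26 with a standard error of 0.27 and a 95% interval of -1.90 to -0.61, or 2.39-fold lower. The difference missed the threshold (limma adjusted p = 0.112).

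On the brighter S100b probe set, 1434342_at, the values were 9.97, 10.02 and 9.07 in the reactive and 11.01, 9.83 and 10.21 in the non-reactive arrays. Here the groups overlapped, because non-reactive replicate 2 lay below reactive replicates 1 and 2. The log2 difference was -0.66 (SE 0.40, 95% interval -1.62 to 0.29, limma adjusted p = 0.522). Reactive replicate 3 was the lowest array on both probe sets, and without it the differences were -1.0 and -0.35.

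S100a6, also called calcyclin, binds the ubiquitin ligase adaptor Cacybp. Its log2 values were 10.44, 10.02 and 10.86 in the reactive arrays and 9.10, 8.77 and 8.87 in the non-reactive arrays. The lowest reactive array lay 0.92 above the highest non-reactive one. The means were 10.44 ± 0.42 and 8.92 ± 0.17 (SD, n = 3), a log2 difference of 1.53 (SE 0.27, 95% interval 0.89 to 2.17), or 2.88-fold. It missed the threshold with a limma adjusted p of 0.0675, the lowest among the 12 probe sets. Without reactive replicate 3 the difference was 1.32.

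S100a4, which binds non-muscle myosin and is known from fibroblasts and migrating cells, had log2 values of 8.26, 8.40 and 9.12 in the reactive and 7.08, 6.38 and 7.14 in the non-reactive arrays. The gap between the groups was 1.12, the widest of the 12 probe sets. The log2 difference was 1.72 (SE 0.33, 95% interval 0.94 to 2.51), or 3.31-fold, with a limma adjusted p of 0.0832. It was 1.46 without reactive replicate 3.

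S100a10, the annexin A2 ligand also named p11, had 1 pair of probe sets above background. On 1456642_x_at the log2 values were 8.83, 8.86 and 10.46 in the reactive and 7.34, 7.94 and 8.19 in the non-reactive arrays. On 1416762_at they were 6.36, 7.63 and 8.36 against 5.84, 5.25 and 6.09. Both probe sets placed every reactive array above every non-reactive one, with reactive replicate 3 the highest. The log2 differences were 1.56 (SE 0.49) and 1.72 (SE 0.52), with limma adjusted p of 0.257 and 0.238. Without reactive replicate 3 they were 1.02 and 1.27. The third probe set, 1439348_at, lay between 3.03 and 3.80 on all arrays, below the probe set means' overall median of 4.74, and differed by -0.053.

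S100a13 takes part in the export of Fgf1 and interleukin-1 alpha, proteins that lack a signal peptide. Its log2 values were 10.62, 10.61 and 11.33 in the reactive and 10.39, 10.35 and 10.37 in the non-reactive arrays. The groups did not overlap, with a gap of 0.21, and the 3 non-reactive arrays lay close together (SD 0.020, n = 3). The log2 difference was 0.48 (SE 0.25, 95% interval -0.13 to 1.09, limma adjusted p = 0.474), and 0.24 without reactive replicate 3.

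S100a1, the divergent neighbour of S100a13, is known for modulating ryanodine receptors in muscle and is also found in brain. On 1419814_s_at its log2 values were 12.16, 12.30 and 12.20 in the reactive and 12.17, 11.64 and 12.01 in the non-reactive arrays, and the groups overlapped. The log2 difference was 0.28 (SE 0.22, 95% interval -0.23 to 0.80). On 1417421_at it was 0.15 (SE 0.36, 95% interval -0.70 to 1.00), and -0.11 without reactive replicate 1. Neither passed (limma adjusted p of 0.602 and 0.875), and without reactive replicate 3 they differed by 0.29 and 0.49.

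S100a16, a broadly expressed member of the same gene cluster, had log2 values of 11.76, 11.73 and 12.72 in the reactive and 12.23, 12.11 and 12.16 in the non-reactive arrays on 1447676_x_at. The reactive arrays lay on both sides of the non-reactive ones. The log2 difference was -0.098 (SE 0.31, 95% interval -0.83 to 0.64). On 1425560_a_at it was 0.065 (SE 0.32, 95% interval -0.69 to 0.82), and -0.023 after quantile normalisation. Without reactive replicate 3 the differences were -0.42 and -0.12. The intervals leave room for a change of either direction below 1 on the log2 scale.

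**Figure D2:**
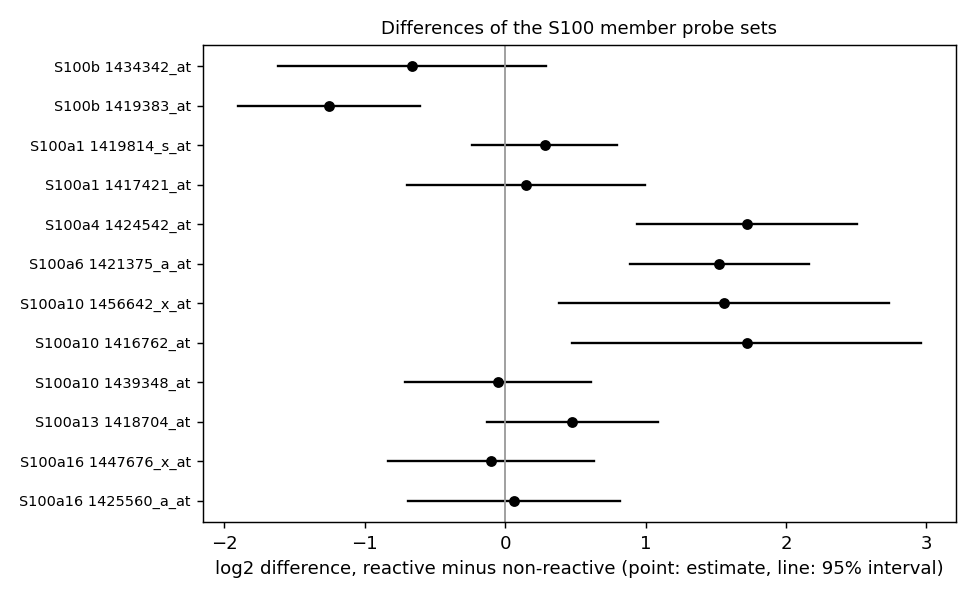
Log2 difference, reactive minus non-reactive, of each S100 member probe set with its 95% interval. The intervals of S100a4, S100a6 and of S100a10 on 1456642_x_at and 1416762_at lie above 0, that of S100b on 1419383_at lies below 0 and the other 7 include 0.

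The members' profiles over the 6 arrays were compared by the root mean square difference between log2 values, after each gene was centred on its own mean and represented by its brightest probe set. This is a description over arrays of both groups. Of the 21 pairs, S100a4 and S100a6 were the closest at 0.27, followed by S100a13 with S100a16 at 0.30 and S100a1 with S100a13 at 0.31. S100b was farthest from S100a10, at 1.51. Among all other genes, the profile nearest to that of S100a6 was Smim27 at 0.12, and Dnajc15 and Cyp39a1 each stood at 0.13. Nearest to S100a4 were 2810025M15Rik at 0.093, Polr2j at 0.16 and Mrpl34 at 0.17. Nearest to S100a10 were 2810414N06Rik at 0.18, Gsn, the actin-severing protein gelsolin, at 0.19 and Cebpzos at 0.22. Nearest to S100b were Rab11b and Decr1, each at 0.13, and Dcaf11 at 0.14. S100a1 lay nearest to Mettl7b at 0.047, Dgkk at 0.055 and Sdhc at 0.060. S100a13 lay nearest to Hap1 at 0.054, Wnk4 at 0.061 and Ipw at 0.065, and S100a16 to Hmgn1 at 0.039, 6820408C15Rik at 0.070 and Tpra1 at 0.072.

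Of 9 other S100 genes listed, 6 were measured, and 0 passed in limma or had an unadjusted p under 0.05, against 0.951% and 15% of all genes. S100a8, which with S100a9 forms calprotectin of neutrophils and monocytes, had log2 values of 4.88, 4.36 and 7.02 in the reactive and 3.54, 4.29 and 4.23 in the non-reactive arrays. Its difference was 1.40 (SE 0.68, limma adjusted p = 0.435), and 0.60 without reactive replicate 3. S100a9 differed by 0.71 (SE 0.42), and by 0.23 without that array, on which it stood at 5.22 and otherwise at or below 3.99. S100a3 differed by 0.44, S100a5 by 0.46, S100g by 0.18 and S100a14 by -0.053. S100a3 differed by -0.15 without reactive replicate 2, S100g by -0.074 without reactive replicate 1, and S100a14 by 0.076 without reactive replicate 1. The non-reactive means of all 6 were under that overall median of 4.74, which leaves their sizes uncertain. Along chromosome 3, the genes with differences above 1 were S100a4, S100a6, S100a8 and S100a10. S100a5, which lies between S100a4 and S100a6, was near background.

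**Figure D3:**
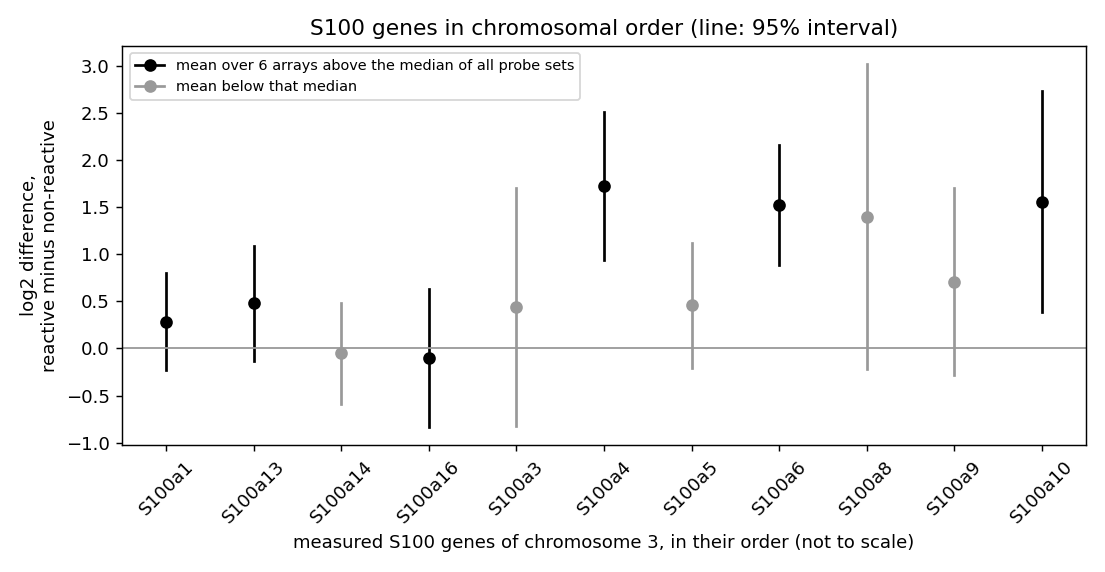
Log2 difference with its 95% interval for the S100 genes of chromosome 3 that were measured, in chromosomal order and not to scale, with genes whose mean lay below 4.74 in grey. S100a4 at 1.72, S100a6 at 1.53 and S100a10 at 1.56 are the genes whose interval lies above 0.

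Partners of S100 proteins were followed through 21 measured genes of 22 listed, at the brightest probe set of each. In limma 0 passed, against 0.951% of all genes, and 3 had an unadjusted p under 0.05, against 15% of all genes. The median log2 difference was 0.20, beside 0.12 over all genes. Those 3, named after their values were seen, were Anxa2, Cacybp and Fgf1. Anxa2, the membrane-binding partner of S100a10, had log2 values of 7.25, 8.25 and 9.05 in the reactive and 5.29, 5.59 and 5.49 in the non-reactive arrays. The groups did not overlap, and reactive replicate 3 was the highest array, as for S100a10. The log2 difference was 2.72 (SE 0.44, 95% interval 1.66 to 3.78, limma adjusted p = 0.0579). Its call was gained with array weights (0.0442) and without dim probe sets (0.0447), and its adjusted p ran from 0.0442 to 0.181 across alternatives. Without reactive replicate 3 the difference was 2.29. The other Anxa2 probe sets differed by 0.57 and 0.044.

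Cacybp, the ligand of S100a6, measured 8.55, 7.61 and 8.54 in the reactive and 7.79, 6.85 and 6.69 in the non-reactive arrays, so the groups overlapped. Its log2 difference was 1.12 (SE 0.40, limma adjusted p = 0.306). Fgf1, a growth factor exported with S100a13, had a log2 difference of -1.20 (SE 0.47), and limma gave it an adjusted p of 0.352. Its remaining probe sets differed by -1.01 and -1.43. Il1a, the other cargo of S100a13, differed by 0.95 (SE 0.56), but the groups overlapped and its mean lay under 4.74. Reactive replicate 2 was its highest array at 6.14, against 4.13 and 4.63 on reactive replicates 1 and 3. Myh9, the non-muscle myosin bound by S100a4, had values of 10.04, 7.37 and 11.20 in the reactive and 8.32, 9.40 and 8.92 in the non-reactive arrays. It differed by 0.66 (SE 0.93), and by -0.18 without reactive replicate 3. The other Myh9 probe sets differed by -0.34 to 0.71. Ager, the receptor RAGE, differed by 0.17 (SE 0.27). Il1a, Myh9 and Ager were named after their values were seen. Of the brightest partners, Capzb, an actin capping subunit, differed by 0.64 (SE 0.34) and Syt1, a synaptic vesicle calcium sensor, by -0.060 (SE 0.64), the latter by 0.71 without reactive replicate 3. The Syt1 probe sets disagreed: 1431191_a_at measured 6.27, 5.79 and 5.18 in the reactive and 8.29, 8.73 and 7.36 in the non-reactive arrays, with no overlap. Its log2 difference was -2.38 (SE 0.43, limma adjusted p = 0.0747), and the mean over the gene's probe sets differed by -0.78.

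**Figure D4:**
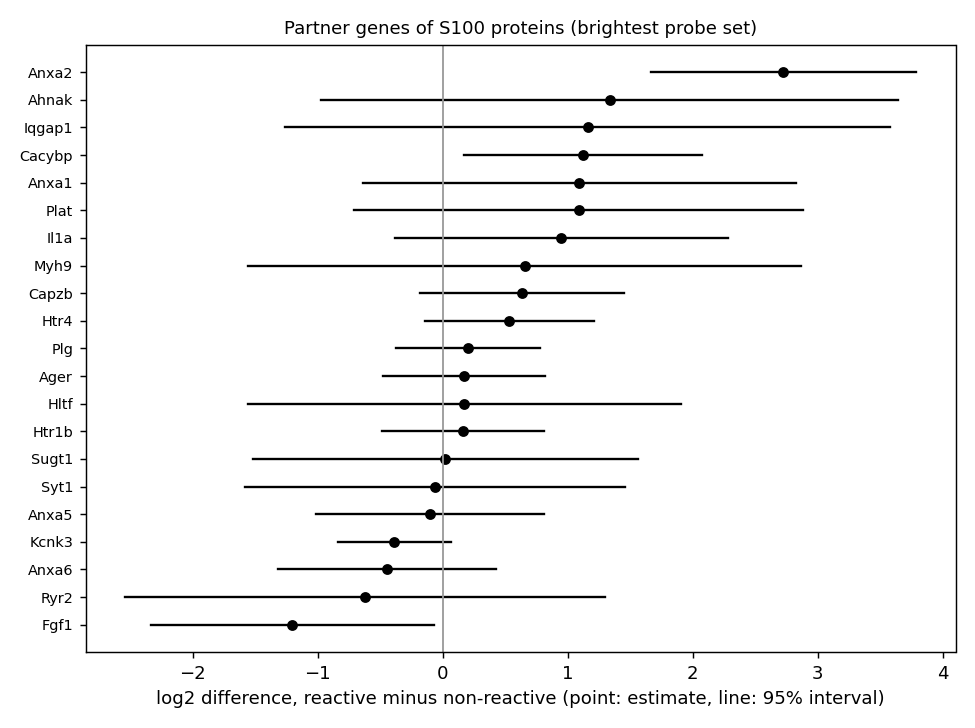
Log2 difference with its 95% interval for the brightest probe set of each of 21 partner genes, in order of size. Anxa2 at 2.72 and Cacybp at 1.12 have intervals above 0, Fgf1 at -1.20 has an interval below 0, and the other 18 include 0.

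Other EF-hand calcium sensors gave a comparison outside the family. Of the 8 genes measured 0 passed in limma, against 0.951% of all genes. An unadjusted p under 0.05 was found for 3 of the 8, against 15% of all genes. Pvalb, the neuronal calcium buffer parvalbumin, differed by 1.09 (SE 0.29), Ncs1, a neuronal calcium sensor, by 0.92 (SE 0.37) and Sri, the sensor sorcin chosen after its values were seen, by 1.42 (SE 0.34). Their limma adjusted p were 0.190, 0.366 and 0.139. Averaged over its probe sets, Ncs1 differed by -0.063 and Sri by 0.63, and 1423155_at of Sri by -0.52. The median log2 difference of the 8 was 0.49.

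Other cells that express S100 genes were followed through marker lists, summed on the linear scale per array. Markers counted as rising or falling passed the threshold in limma, as did 0.951% of all genes in either direction. Of 14 astrocyte markers 5 fell and 1 rose, and the sum was 28082 to 29781 on reactive against 51308 to 67382 on non-reactive arrays. Slc4a4, Gjb6 and Sox9 fell by 2.98, 2.63 and 2.31 on the log2 scale, and Gfap, the gene whose human promoter drove the reporter of the reactive cells, rose by 3.12. Their limma adjusted p lay between 0.0205 and 0.0492. Aldh1l1, the gene in the name of the non-reactive cells' reporter line, differed by -0.57 with no overlap (limma adjusted p = 0.366). It was named after its values were seen. All 14 markers had means above 4.74 in both groups. Of 19 microglia and macrophage markers 6 rose, among them C1qa by 3.76 and Cd68 by 4.12 (limma adjusted p of 0.0170 and 0.0424), and the sum was 25996 to 41196 against 10300 to 10715. Of 13 blood leukocyte markers 4 rose, among them Cd52 by 3.52 and Plac8 by 3.31 (limma adjusted p of 0.0231 and 0.0161), with sums of 7620 to 15720 against 417 to 676. Lyz1, Lyz2 and Cd52 made up 93.7% to 96.8% of that sum on the reactive and 36.5% to 48% on the non-reactive arrays. The other 9 leukocyte markers differed by -0.24 to 0.27, with Ccr2, Ngp, Ltf and Cd79a below 0, and the median of the 13 was 0.15. S100a4, S100a6 and S100a10 were higher on these same reactive arrays.

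Oligodendrocytes can also express S100b. Of 13 of their markers 1 rose, Ermn by 2.17 (limma adjusted p = 0.0363), and the sums were 25538 to 28497 against 20650 to 26353. Of the 13 differences 12 lay above 0, and their median was 1.36, beside 0.12 over all genes. Mbp, the brightest of these markers, differed by -0.49 and weighs most in the sums. The endothelial sum was 1256 on reactive replicate 3 and 183 to 263 on the other arrays. It rested mainly on Cldn5 and Kdr, at log2 values of 9.36 and 8.73 there, against 4.51 to 5.61 and 5.41 to 6.29 on the others. Vwf and Cdh5 were also highest on that array, Pecam1 and Tek only slightly so, and Slco1a4, Flt1 and Emcn were not. The sum of fibroblast and meningeal markers was 1450 on reactive replicate 3 and 368 to 584 on the others. The sum of neuronal markers was lowest on reactive replicate 3, at 9188 against 15024 to 19836 on the others. That array was also the highest for S100a4, S100a6, S100a13, S100a8 and S100a9. It was highest too for S100a10 on its probe sets above background and for S100a16 on 1447676_x_at. It was lowest for S100b and for S100a1 on 1417421_at. Of 9 endothelial, 9 fibroblast and meningeal, 8 pericyte and smooth muscle, 6 oligodendrocyte precursor, 12 neuronal and 6 ependymal markers 0 passed in limma. Of 4 Schwann cell markers 1, Egr2, rose by 1.90 (limma adjusted p = 0.0492). Over all genes 0.951% passed. No marker is listed at 0. Of the 18 marker genes that passed, 0 passed with the replicate block or without any 1 of the non-reactive arrays, and 4 to 7 without 1 of the reactive arrays. Gfap also missed the threshold under each of the other scalings (limma adjusted p of 0.0528 to 0.0577). The 3′ minus 5′ difference of control probe sets reflects both RNA integrity and the 2 rounds of amplification, which cannot be told apart here. This difference was lower on every reactive array than on any non-reactive array for Gapdh, Actb and Pcx, and higher for 18S rRNA. For the transferrin receptor the groups overlapped. The reactive and non-reactive means were 4.17 and 5.19 for Gapdh, 3.38 and 5.05 for Actb, and 1.44 and 3.46 for Pcx. They were 0.83 and -1.15 for 18S rRNA and 0.55 and 0.43 for the transferrin receptor. The part of these markers and controls in the S100 differences was not tested.

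**Figure D5:**
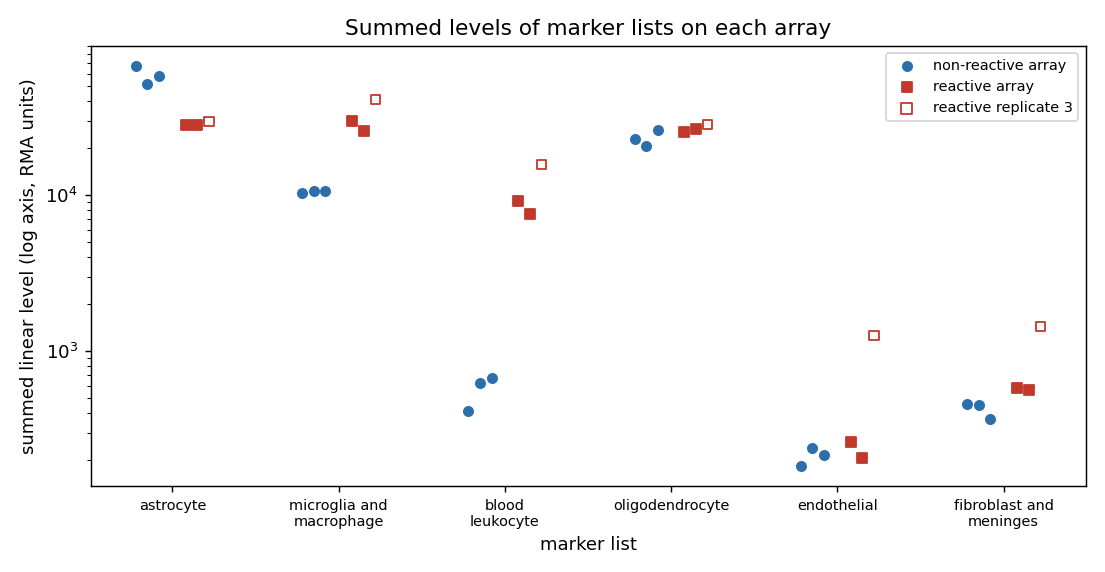
Summed linear level of 6 marker lists on each array, on a log axis, with non-reactive arrays as circles, reactive arrays as squares and reactive replicate 3 as open squares. The reactive arrays lie below the others for astrocyte markers and above them for the microglia and leukocyte lists, and reactive replicate 3 stands at 1256 for endothelial and 1450 for fibroblast and meningeal markers.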

How the data were processed

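The deposited table holds log2 expression values that, per the submitters' processing notes, the authors made with robust multi-array average (RMA). No settings are given by the sources used here. Usually RMA equalises the arrays' distributions, so total RNA per cell is not seen, and it can make differences look smaller than they are. Array medians lay between 4.65 and 4.73. RNA was amplified in 2 rounds before labelling, per the labels' protocols, which can favour 3′ ends. The number of arrays limits the precision.

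Control probe sets (64) were left out. The platform annotation gave 1 symbol for 34945 probe sets, several for 932 and none for 9160. The RefSeq gene table of GRCm38.p6 matched 34741 of the former by gene identifier and changed 0 symbols. A gene was represented by its brightest probe set (18193 genes). Reactive was compared with non-reactive with limma 3.58.1 (lmFit, eBayes; R 4.3.3), two-sided, with Benjamini-Hochberg adjustment over 45037 probe sets and a threshold of 0.05. The labels call the arrays biological replicates. The fit was tested on simulated data.

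Members and lists were chosen with earlier results of these data known. Named by rule were all member probe sets, all other S100 genes measured, from each list up to 4 called genes and up to 2 others of the highest mean, and the 3 nearest profiles of each member. For marker lists only some of the called genes are named. Alternatives covered scaling, variance model, weights, filters, replicate number, left-out arrays, probe set choice and a test against 1.5-fold.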

Additional observations from a re-analysis of the deposited data

How the results depend on the processing

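None of the 12 member probe sets passed under any of the 16 alternatives it could be run under, nor any of the 7 member genes averaged over its probe sets. Of the 193 member values from these, 182 kept their sign and 0 passed. Leaving out 1 array turned the sign of S100a1 on 1417421_at (range -0.11 to 0.49, with -0.027 without non-reactive replicate 2), S100a10 on 1439348_at (-0.29 to 0.098, with 0.030 and 0.069 without reactive replicate 3 and non-reactive replicate 2), S100a16 on 1447676_x_at (-0.42 to 0.073, with 0.056 without reactive replicate 1) and S100a16 on 1425560_a_at (-0.12 to 0.31, with -0.022 and -0.074 without non-reactive replicates 2 and 3). On the last, quantile normalisation gave -0.023. The adjusted p ranged from 0.0502 to 0.337 for S100a6 and from 0.0573 to 0.347 for S100a4, both lowest in the fit on gene averages, which tests fewer features, and from 0.0631 and 0.0697 in the fits on probe sets. The number of member probe sets whose groups did not overlap, checked by alternatives chosen after seeing the data, was 6 under each scaling, where 19.6% to 22.5% of all probe sets did not overlap, and 6 to 8 with 1 array left out, where that share was 28.3% to 33.9%.

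Over all probe sets limma called 383, but 41 against a 1.5-fold change, 1 with the replicate block, and 1 to 173 with 1 array left out: 57, 173 and 166 without reactive replicates 1, 2 and 3, and 1, 1 and 4 without non-reactive replicates 1, 2 and 3. The deviations of same-numbered arrays from their group means correlated at -0.073, -0.11 and 0.037. With 3 arrays per group, these values cannot decide whether same-numbered arrays were handled together. With the replicate block 0 members passed. Of the partners 0 were called, but 1, Anxa2, with array weights and 1 without probe sets below the median mean. Of the listed genes, whose alternatives were chosen after seeing the data, 505 of 513 values kept their sign. The exceptions were S100a3 (range -0.15 to 0.84), S100a14 (-0.17 to 0.076), S100g (-0.074 to 0.54), Syt1 (-0.46 to 0.71) and Myh9 (-0.18 to 1.74) with 1 array left out, and Ncs1 (-0.063) averaged over its probe sets. Of the 18 marker genes called, 13 to 17 were called under the other scalings, variance models, weights, filter on dim probe sets and gene averages, 10 of the 11 left without the suffixed probe sets, 5 against a 1.5-fold change, 0 with the replicate block and 0 to 7 with 1 array left out. The filter on dim probe sets left 0 of the 6 other S100 genes to count. The causes were not tested.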
